A study of Mus musculus with 10 samples.

Results

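The regions described here are places on the mouse genome that were called as bound by Dlx2 in the postnatal cortex and in no other tissue or age of the series. The assay was ChIP-seq, in which chromatin held by an antibody, here against Dlx2, is sequenced and stretches richer in reads than the local background are called as regions. The 5 immunoprecipitated libraries were cortex and olfactory bulb of postnatal day 3 (P3) and cortex, olfactory bulb and basal ganglia of embryonic day 16 (E16). The other 5 of the 10 samples are input libraries and were not analysed here. Each tissue and age has 1 immunoprecipitated library, so no difference below has a replicate check and no p-value is given. The labels give tissues, not sorted cells, and no strain, sex or animal number. To find the regions, the 5 lists were pooled on chromosomes 1 to 19 and X, regions overlapping by at least 1 bp were merged, and merged regions built from the P3 cortex list alone were kept. The regions were thus chosen by the authors' calls in all 5 libraries, and what separates them from shared regions in strength is a description. This gave 1363 of the 2116 P3 cortex regions (64.4%, exact Clopper-Pearson 95% interval 62.3 to 66.5), out of 18606 merged regions in the series. The intervals given here and below cover counting error only, not the spread between animals. The other 753 P3 cortex regions were shared with at least 1 other list and serve as the comparison within the same library.

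Dlx2 is a homeodomain transcription factor of the ganglionic eminences, the embryonic source of forebrain GABAergic neurons. It acts with its paralogue Dlx1, and the pair is needed for interneurons to differentiate and to migrate into the cortex and olfactory bulb. Homeodomain proteins of this kind bind short AT-rich sequences built on a TAAT core, at promoters and at distant enhancers. By birth, interneurons have entered the cortex and are settling into its layers, where they are a minority among glutamatergic neurons and glia.

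Being absent from a list means that a place stayed below the authors' threshold in that library. The lists differ in length, with 14732 regions on these chromosomes in the E16 basal ganglia, 6307 in the E16 cortex, 1665 in the E16 olfactory bulb and 732 in the P3 olfactory bulb. Read depth is unknown. In a library from whole tissue, binding in fewer cells and weaker binding per cell cannot be told apart. Names of regions state the removal of duplicate reads in 4 lists but in 0 regions of the P3 cortex list, and this difference cannot be told apart from tissue and age. As a check on the library, 5 of the 7 Dlx family genes held a P3 cortex region within the gene body extended by 10 kb, and each of these regions was shared with another list. Over all protein-coding genes, 2.18% held a shared P3 cortex region. Dlx1 lies beside Dlx2 and Dlx5 beside Dlx6, so 1 region can count for both genes of a pair.

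The sequences printed next are those of promoters that a region only in P3 cortex overlapped. The promoter table (RefSeq, GRCm38.p6, the build of mm10) gives 300 bases for each start, and only the 250 bases before the annotated start are printed, read 5′ to 3′ on the gene's strand. The chosen promoters belong to protein-coding genes. They are that of Chd5, which had the strongest region within 250 bp of a start, the 5 strongest by −log10 q of those with 2 or more copies of CCAAT on either strand within these bases, that of Acp6 with a homeodomain core, and that of Eif3c with an element of 11 bases known from ZNF143-bound promoters. Capitals mark CCAAT (bound by the trimeric factor NF-Y) or its reverse complement ATTGG, the GC box GGGCGG (bound by Sp and KLF factors) or CCGCCC and the homeodomain core TAATTA. The ZNF143-type element is the longest run of capitals in the Eif3c sequence, where it stands as its reverse complement. Chd5, a neuronal chromatin remodeller of the CHD family, is at chr4:152338401-152338650, plus strand. Cdc27, a subunit of the anaphase-promoting complex, is at chr11:104550621-104550870, minus strand. Atg7, an enzyme that autophagy requires, is at chr6:114670846-114671095, plus strand. Igsf9, an immunoglobulin-superfamily adhesion protein of dendrites, is at chr1:172481963-172482212, plus strand. Top2a, the DNA topoisomerase of dividing cells, is at chr11:99024190-99024439, minus strand. Cct7, a subunit of the cytosolic chaperonin, is at chr6:85451255-85451504, plus strand. Acp6, a lysophosphatidic acid phosphatase, is at chr3:97158527-97158776, plus strand. Eif3c, a subunit of translation initiation factor 3, is at chr7:126566367-126566616, minus strand.
Chd5: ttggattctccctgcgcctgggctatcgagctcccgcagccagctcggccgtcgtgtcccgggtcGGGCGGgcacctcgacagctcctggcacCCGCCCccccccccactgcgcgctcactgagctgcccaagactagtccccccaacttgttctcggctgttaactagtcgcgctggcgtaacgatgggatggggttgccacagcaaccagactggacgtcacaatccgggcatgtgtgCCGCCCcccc
Cdc27: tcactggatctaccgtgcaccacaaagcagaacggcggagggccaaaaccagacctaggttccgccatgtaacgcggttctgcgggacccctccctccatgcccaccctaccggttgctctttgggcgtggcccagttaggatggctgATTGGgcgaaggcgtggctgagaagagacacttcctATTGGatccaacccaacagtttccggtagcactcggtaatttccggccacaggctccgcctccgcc
Atg7: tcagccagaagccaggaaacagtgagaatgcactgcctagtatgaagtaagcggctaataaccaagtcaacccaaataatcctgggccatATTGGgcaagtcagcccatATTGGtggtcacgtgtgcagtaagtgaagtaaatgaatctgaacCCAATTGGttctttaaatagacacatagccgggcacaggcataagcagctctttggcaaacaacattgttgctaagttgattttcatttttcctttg
Igsf9: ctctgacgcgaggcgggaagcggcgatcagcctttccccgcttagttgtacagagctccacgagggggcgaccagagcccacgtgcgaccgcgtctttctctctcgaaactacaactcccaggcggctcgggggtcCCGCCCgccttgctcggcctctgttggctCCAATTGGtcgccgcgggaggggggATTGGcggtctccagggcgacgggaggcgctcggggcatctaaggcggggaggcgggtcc
Top2a: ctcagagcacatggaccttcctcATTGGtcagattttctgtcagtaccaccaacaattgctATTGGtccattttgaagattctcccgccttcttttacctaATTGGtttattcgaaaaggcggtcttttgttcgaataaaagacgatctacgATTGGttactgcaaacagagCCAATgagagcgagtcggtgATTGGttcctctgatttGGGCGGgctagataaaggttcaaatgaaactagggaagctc
Cct7: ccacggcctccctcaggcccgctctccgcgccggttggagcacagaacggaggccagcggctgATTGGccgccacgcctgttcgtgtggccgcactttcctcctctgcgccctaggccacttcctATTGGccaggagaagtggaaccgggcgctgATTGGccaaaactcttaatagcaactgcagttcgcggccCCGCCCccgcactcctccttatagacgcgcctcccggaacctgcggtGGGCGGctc
Acp6: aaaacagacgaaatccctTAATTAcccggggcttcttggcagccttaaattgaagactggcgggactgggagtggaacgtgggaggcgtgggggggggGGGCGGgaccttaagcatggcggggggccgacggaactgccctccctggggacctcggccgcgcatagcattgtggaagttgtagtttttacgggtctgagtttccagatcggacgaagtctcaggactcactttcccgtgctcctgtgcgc
Eif3c: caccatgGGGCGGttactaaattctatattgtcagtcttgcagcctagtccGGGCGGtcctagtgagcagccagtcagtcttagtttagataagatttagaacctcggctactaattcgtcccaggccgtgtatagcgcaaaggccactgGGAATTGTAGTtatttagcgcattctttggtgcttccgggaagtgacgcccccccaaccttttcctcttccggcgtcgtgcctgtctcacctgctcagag

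These promoters differ in what they carry. The Chd5 window held 0 copies of CCAAT and 3 GC boxes, and its region (chr4:152338183-152339062) peaked 123 bp upstream of the start with a fold enrichment of 16.4. The Top2a window held 6 copies of CCAAT, at −227, −189, −149, −98, −78 and −58 bp from the start, and its region (fold enrichment 5.77) peaked 85 bp upstream. Atg7 had 4 copies, and a pair of them forms the palindrome CCAATTGG, in which the copies on the 2 strands share bases. Igsf9 had 3 copies with the same palindrome, Cct7 had 3 and Cdc27 had 2. The fold enrichment of their regions was 5.07 for Atg7, 5.42 for Igsf9, 4.95 for Cct7 and 7.60 for Cdc27. The homeodomain core of Acp6 lay 232 bp before the start, while the summit lay 51 bp before it. A match describes letters in the window and is not a shown binding site.

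Fold enrichment is the authors' ratio of signal at a region's summit to the local background, and −log10 q is their significance value for that summit. Regions only in P3 cortex had nearly the same median strength as the shared ones, but few of the very strongest were among them. Their fold enrichment ran from 1.24 to 25.4 with a median of 4.43 (quartiles 3.87 and 5.51), against 1.21 to 49.1 with a median of 4.47 (3.78 and 5.49) for the shared P3 cortex regions. The median −log10 q was 7.43 in regions only in P3 cortex and 8.15 in shared regions. The median width was 389 bp in regions only in P3 cortex and 408 bp in shared regions. Regions over 1 kb numbered 10 of 1363 (0.734%, 0.352 to 1.35) only in P3 cortex and 28 of 753 (3.72%, 2.48 to 5.33) among the shared. A fold enrichment under 2 was found in 6 regions only in P3 cortex (0.44%) and in 24 shared ones (3.19%). Since membership was decided by these same calls, these values describe the set and were not tested.

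Along the P3 cortex list ranked by −log10 q, regions only in P3 cortex made up 1 of the 10 strongest, 11 of the 50 strongest and 41 of the 100 strongest (41%, 31.3 to 51.3). From rank 101 on they made up a larger and fairly level part. They were 101 of the 150 at ranks 101 to 250 (67.3%), 154 of the next 250 (61.6%), 336 of the next 500 (67.2%) and 731 of the last 1116 (65.5%). Rank and membership both come from the authors' calls, so these shares describe the list and were not tested.

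**Figure D1:**
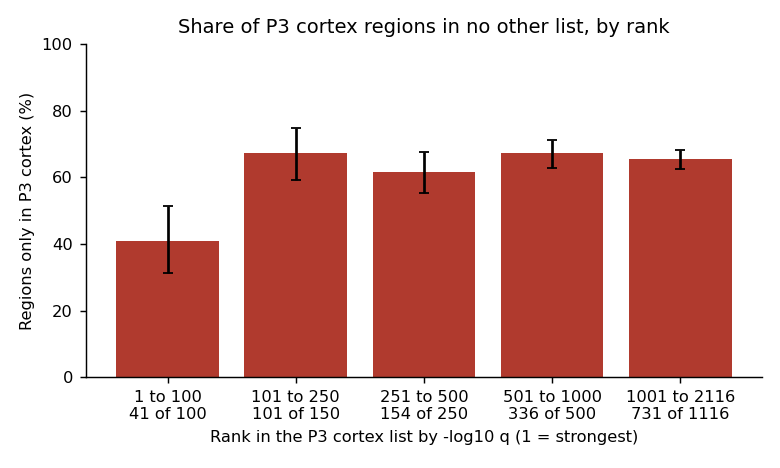
Share (%) of P3 cortex regions that were in no other list, by rank on −log10 q (1 is the strongest), with the count under each bar and exact 95% intervals as error bars. The share was 41% in the first 100 ranks and between 61.6% and 67.3% in the later stretches.

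The strongest region only in P3 cortex lay within Fbxl13, which encodes an F-box protein, at chr5:21608582-21609972, with a fold enrichment of 25.4 and a −log10 q of 205. Next came regions in long stretches without protein-coding genes. One on chromosome 13 peaked 711 kb from Cetn3, a centrin gene (18.99), and one on chromosome 16 peaked 281 kb from Gm52257 (19.2). A region 765 kb from the proto-oncogene Myc (13.1) and one 374 kb from the lens crystallin gene Cryba4 (18.9) were also among the first 7. The region within Kdm8, a gene for a JmjC-domain protein, was the widest at 1870 bp (chr7:125462346-125464215, fold enrichment 21.5). Its summit lay 0.814 kb inside a boundary of the gene and 18.2 kb downstream of the annotated start. The region within the uncharacterised gene D430041D05Rik had 17.4 and that at the Chd5 start 16.4.

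Several of the 25 strongest lay within protein-coding genes. Nmnat2, an NAD-synthesising enzyme that maintains axons, held a region of fold enrichment 17.1 located 65.7 kb from the nearest boundary of the gene. Fmn2, an actin-nucleating formin, had 16.1, and the protein kinase D gene Prkd1 had 15.9. Auts2, a neurodevelopmental gene, had 14.6 at a summit at least 534 kb from either end of the gene, and Ctnnd2, which encodes delta-catenin of dendrites, had 14.1. The Ctnnd2 region lay 272 bp from an E16 cortex region, so it stood just outside a match. Abcc4, an efflux transporter gene, had 17.7, Asb17 had 10.8 and the proteasome regulator gene Psmf1 had 13.4. A region 42.9 kb from the homeodomain gene En1 lay within the long non-coding RNA gene 2610027F03Rik (17.7). The region nearest to Adgrl3, a latrophilin gene, was 1719 kb away from it (14.9), the farthest from a protein-coding gene of all 1363. The remaining 7 of the 25 lay outside protein-coding genes, nearest to Wfdc18, 1700009N14Rik, Rpap3, Oas1c, Hs6st1, Vrk1 and Elovl6, with fold enrichments between 11.98 and 16.4.

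**Figure D2:**
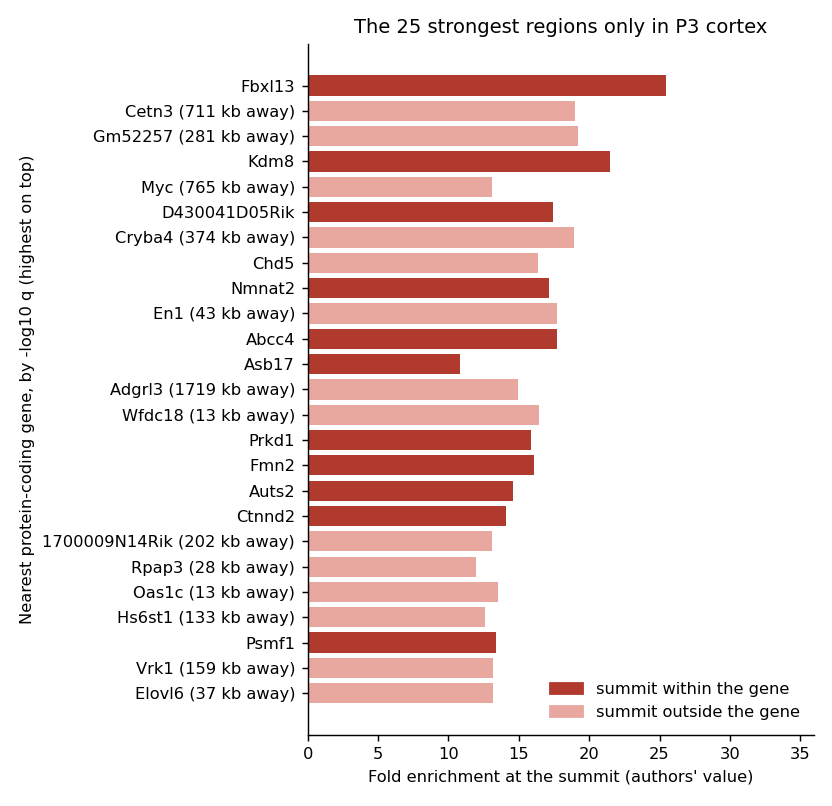
Fold enrichment (x axis, the authors' value) of the 25 strongest regions only in P3 cortex, from the highest −log10 q at the top, each named by its nearest protein-coding gene with the distance where the summit was at least 1 kb outside it. Values run from 25.4 within Fbxl13 to 10.8 within Asb17, and summits within and outside genes are mixed down the order.

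Besides Kdm8 and Fbxl13, the widest regions were those within Tiam1, a Rac exchange factor gene (1513 bp, fold enrichment 8.48), 11.1 kb from the cytoskeletal linker gene Rdx (1356 bp, 5.24) and 19.8 kb from the phosphatidylserine decarboxylase gene Pisd (1344 bp, 5.87). The last lay 3.86 kb from the pseudogene Gm2420, and the Rdx region lay within the transcribed pseudogene Gm6981.

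Most regions only in P3 cortex were not near misses of another list. Of the 1363, 36 lay within 1 kb of a region of another list (2.64%), 210 within 10 kb (15.4%) and 851 within 100 kb (62.4%), with a median gap of 62.9 kb. The neighbour was an E16 basal ganglia region for 28 of those within 1 kb, where a region near more than 1 list counts for each. The numbers within 1 kb were 11 for the E16 cortex, 4 for the P3 olfactory bulb and 3 for the E16 olfactory bulb. No such distances were computed for other places, so the counts by distance have no comparison. Just inside the threshold stood a region 44.2 kb from Pdzrn3, 27 bp from a basal ganglia region, and one 0.82 kb upstream of Cxcr4, 47 bp from one. They were followed by 2 regions on chromosome 9, 299 and 317 kb from Alkbh8, at gaps of 102 and 118 bp, and by one at the start of Atp5g2, at 121 bp. The chromosome 9 pair had fold enrichments of 1.49 and 1.24, among the lowest of the set, and peaked 2.84 and 20.1 kb from the microRNA gene Mir101c. Just outside the threshold, and so not in the set, were P3 cortex regions that met another list by 5 bp near Esp38, 25 bp near Myc, 52 bp at Ranbp1 and 82 bp at Mylpf. The basal ganglia list, the longest with 14732 regions, moved the count most. Without it, 1722 P3 cortex regions would have been in no other list, whereas leaving out any one of the 3 other lists gave 1368 to 1397.

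The set was spread over all chromosomes. Its share of P3 cortex regions ranged from 55.0% on chromosome 9 (61 of 111, 45.2 to 64.4) to 78.5% on chromosome 15 (62 of 79, 67.8 to 86.9), and chromosome X held 12 of 18. The regions did not sit in tight groups. Of 1343 pairs of neighbours on a chromosome, 22 lay within 10 kb of each other, and the median gap was 1097 kb.

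Relative to annotated genes of every type, 223 summits of regions only in P3 cortex lay within 1 kb of a gene boundary (16.4%, 14.4 to 18.4), 627 elsewhere within a gene (46.0%, 43.3 to 48.7) and 513 outside genes (37.6%, 35.1 to 40.3). Shared P3 cortex regions had 21.6%, 46.2% and 32.1% in the same places. Regions only in the E16 cortex lay within genes away from a boundary in 77.7% (76.0 to 79.4 of 2427) and outside genes in 4.37% (3.59 to 5.26). Regions only in the E16 basal ganglia lay within genes in 57.7% and outside in 28.5% (27.5 to 29.4 of 9377). The share outside genes in the postnatal cortex set (37.6%) was thus nearer to those of shared P3 cortex (32.1%) and E16 basal ganglia (28.5%) regions. The E16 cortex set stood apart from all of these at 4.37%. Each share rests on 1 library. Regions can also gather in 1 gene, as with 65 only in the E16 cortex at Tcf4, so the intervals may be too narrow. Counted against protein-coding genes alone, 735 summits lay outside a gene body, at a median distance of 42.3 kb. Of these, 259 were over 100 kb and 50 over 500 kb from any protein-coding gene.

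**Figure D3:**
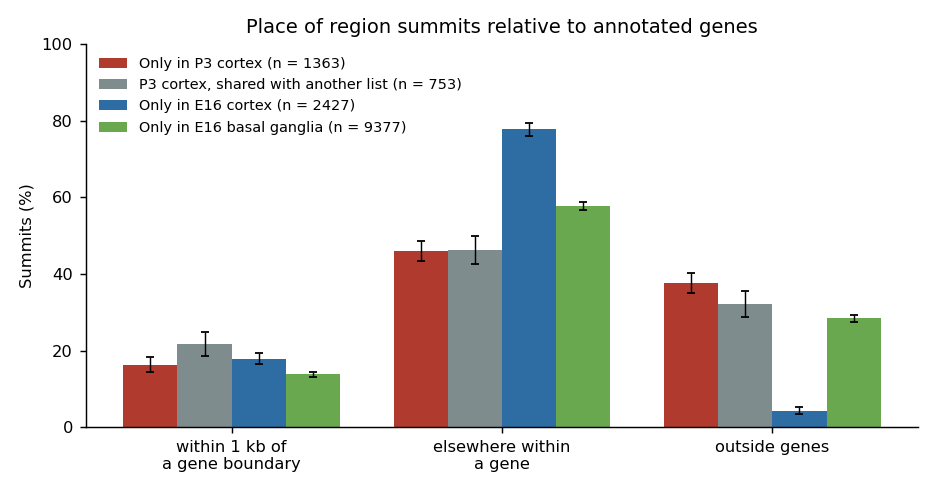
Share (%) of summits within 1 kb of a gene boundary, elsewhere within a gene and outside genes, for regions only in P3 cortex and the 3 sets they are set beside, with exact 95% intervals. Outside genes lay 37.6% of summits only in P3 cortex, 32.1% of the shared P3 cortex summits, 4.37% of those only in the E16 cortex and 28.5% of those only in the E16 basal ganglia.

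A smaller part of the set sat directly at annotated starts. Leaving out chromosome 18, which the promoter table used here does not cover, 109 of 1312 regions only in P3 cortex had a summit within 250 bp of a start (8.31%, 6.87 to 9.93), against 9.78% of 716 shared regions, 1.34% of 2306 only in the E16 cortex and 4.13% of 8966 only in the E16 basal ganglia. Within 1 kb the shares were 12.7% only in P3 cortex, 14.5% for shared regions, 4.86% only in the E16 cortex and 9.51% only in the E16 basal ganglia. Of the 167 summits within 1 kb of a start, 117 lay upstream, and the median position was −72 bp from the start. Their median fold enrichment was 3.87, against 4.43 for the whole set.

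The strongest regions at boundaries of protein-coding genes, after Kdm8 and Chd5, belonged to genes with varied roles. Yipf6, a Golgi membrane protein gene on chromosome X, had a fold enrichment of 12.1, Spata5, an AAA ATPase gene with a boundary shared with Nudt6, had 11.2, and the serotonin receptor gene Htr5a had 8.81. The ethanolamine kinase gene Etnk1 had 8.24, and the divergent pair Deaf1, a transcription factor gene, and Tmem80 had 7.84. Zswim7 with Ttc19 had 7.91, Ddx31 with Gtf3c4, a subunit gene of an RNA polymerase III factor, had 7.81, and Cdc27 had 7.60 at a start it faces with Myl4. Eif3c had 7.22 and Pold4, a DNA polymerase delta subunit gene, had 7.04. Ccni with 2010109A12Rik, Gdf15 and the pair Rnf5 and Agpat1 had 6.25, 5.35 and 5.35.

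In all, 125 regions only in P3 cortex overlapped 160 promoter windows of 147 genes. These windows were rich in CpG. They held a median of 20 CpG per 300 bases, against 7 over all 32619 windows, and 71.3% of them had at least 15, against 34.9% of all. The same share was 73% for windows met by shared P3 cortex regions, 28.3% for those met by regions only in the E16 cortex and 52.0% for regions only in the E16 basal ganglia.

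CCAAT was found on either strand in 94 of the 160 windows (58.8%, 50.7 to 66.5), against 37.6% of all windows and 35.0% of all windows with at least 15 CpG. The 160 windows came from 125 regions, and windows of neighbouring starts can share bases, so intervals over windows may be too narrow. With 1 window per region, CCAAT was in 57.6% of 125 (48.4 to 66.4). Among the CpG-rich windows of the set the share was 57.9% (48.3 to 67.1). At least 2 copies were found in 55 windows (34.4%, 27.1 to 42.3), against 11.7% of all windows and 13.3% of the CpG-rich ones. Windows met by shared P3 cortex regions held 2 or more copies in 41% (31.3 to 51.3), those met by regions only in the E16 cortex in 10.9%, and those only in the E16 basal ganglia in 16.9%. For the whole E16 and P3 olfactory bulb lists the share was 34.1% and 66.7%. Repeated CCAAT was thus also frequent in promoters met by shared P3 cortex and olfactory bulb regions. Copies sat at a median of −93.5 bp from the start, against −90 bp over all windows. From the summit to the nearest copy the median distance was 59.5 bp, and 41 of the 94 windows had a copy within 50 bp of it. Since 55 of the 94 held at least 2 copies and no such distance was computed for other windows, this closeness has no comparison.

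The homeodomain core was about as frequent as over all windows, but 71.3% of the windows of the set were CpG-rich, against 34.9% of all. TAATTA, which reads the same on both strands, was found in 8 of 160 windows (5%, 2.18 to 9.61), against 5.25% of all windows, and in 12% (6.36 to 20.02) of those met by shared P3 cortex regions. Among CpG-rich windows TAATTA was in 1.75% (0.213 to 6.19), against 1.27% of all such windows, and it was in 0 of the 46 windows met by regions only in the E16 cortex. CAATTA was found in 7.5%, 18% of the windows met by shared regions and 8.02% of all windows, and among CpG-rich windows in 7.02% (3.08 to 13.4) against 3.25%. The GC box GGGCGG was found in 61.3% against 35.9% of all windows, and among CpG-rich windows in 77.2% against 76.8%. The ZNF143-type element spelled in the Eif3c promoter was found in 4 windows, those of Eif3c, Brms1l, Prim1 and Pprc1. This was 2.5% (0.685 to 6.28), against 0.288% of all windows. Among CpG-rich windows it was in 2 (1.75%, 0.213 to 6.19), against 0.413%, which that interval includes. The NRF1 core CGCATGCGC was found in 5% against 1.75% of all windows, and among CpG-rich windows in 5.26% against 4.22%. The ETS core CCGGAAG was in 15% against 8.92% of all windows, but among CpG-rich windows in 13.2% against 18.9%. The E-box CACGTG was in 10% against 7.198%, and among CpG-rich windows in 12.3% against 11.3%. The E-box CAGCTG was in 10.6% against 16.4%, and among CpG-rich windows in 7.89% against 13.9%. The TATA box TATAAA was in 5.63% against 13.7% of all windows, and among CpG-rich windows in 3.51% (0.964 to 8.74) against 4.598%. The CRE TGACGTCA was in 1.25% against 1.80%, the AP-1 site TGANTCA in 6.25% against 7.85% and the RFX site GTTGCCA in 4.38% against 4.41% of all windows. Among CpG-rich windows these were 1.75% against 3.62%, 3.51% against 3.24% and 2.63% against 3.62%. With 1 window per region, the CRE was in 0 of 125 windows and the NRF1 core in 4%. CCAAT and CAATTA can share bases, as in CCAATTA read on one strand, so their counts are not independent. Motifs at summits outside promoters were not computed, as no genome was used here.

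**Figure D4:**
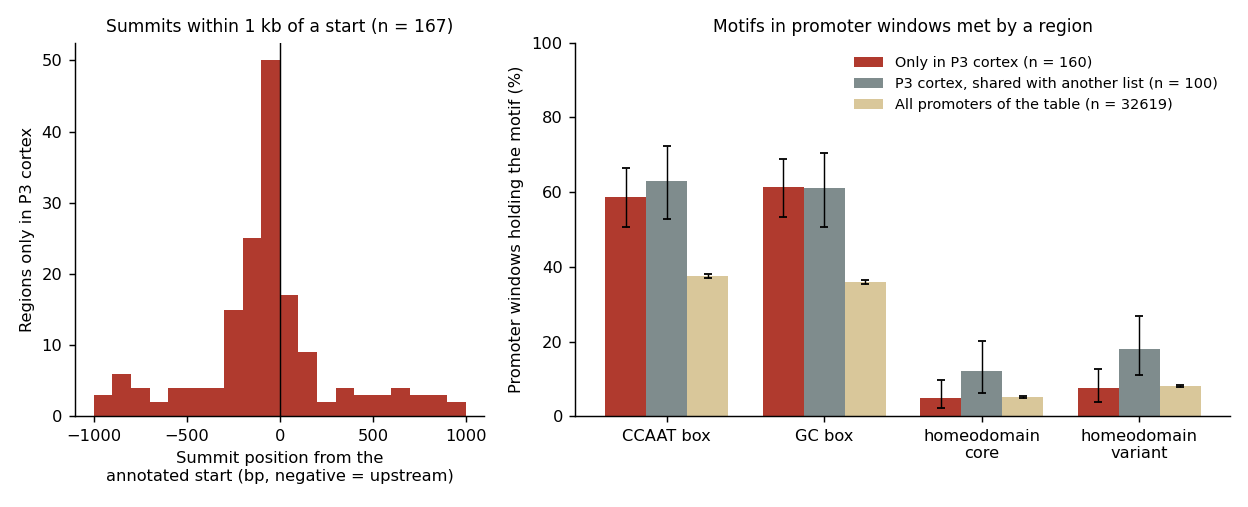
Left, positions of the 167 summits of regions only in P3 cortex within 1 kb of an annotated start (bp, negative upstream, bins of 100 bp). Right, share (%) of promoter windows holding the CCAAT box, the GC box, the homeodomain core TAATTA and its variant CAATTA, with exact 95% intervals, where CCAAT reached 58.8% for regions only in P3 cortex, 63% for shared P3 cortex regions and 37.6% for all windows.

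Genes were counted as holding a region when a summit lay within the gene body extended by 10 kb. Of 21627 protein-coding genes, 922 held a region only in P3 cortex (4.26%). The share climbed with gene length, from 2.09% of genes under 20 kb to 31.4% of genes of 500 kb and more. Among the 989 genes of at least 200 kb it was 23.0% (227 genes), and among the 20638 shorter ones 3.37% (695 genes). Genes that held a region had a median length of 65.2 kb, against 17.3 kb for all protein-coding genes.

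Of the genes that held a region, 69 had at least 2. Celf2, an RNA-binding splicing regulator, Lsamp, a cell adhesion protein of limbic neurons, and Dlg2, a postsynaptic scaffold, had 4 each. Their fold enrichments ran from 3.71 to 7.04 in Celf2, from 4.03 to 5.59 in Lsamp and from 3.83 to 4.93 in Dlg2. Those with 3 included D430041D05Rik, the neuregulin receptor gene Erbb4, the teneurin gene Tenm3, the lipoprotein receptor gene Lrp1b, Efcab6 and the oxysterol-binding protein gene Osbpl1a. The 3 in Erbb4 had 9.15, 5.23 and 3.79. These genes are long, with a median of 283 kb over the 69. Of the 10 genes with the most regions, all but Osbpl1a also held regions of the E16 basal ganglia at other places, such as 20 in Celf2, 14 in Tenm3 and 9 in Lsamp. Osbpl1a held 0 regions of the 4 other lists and D430041D05Rik 2 of the basal ganglia.

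Different regions of the same gene were thus listed in different tissues. Of the 922 genes with a region only in P3 cortex, 460 also held an E16 basal ganglia region (49.9%), against 26.7% of all protein-coding genes. Among genes of at least 200 kb the comparison was 81.9% against 73.4%. For the E16 cortex list it was 23.3% against 17.2%, and in long genes 24.7% against 23.1%. It was 12.9% against 3.63% for the E16 olfactory bulb and 6.72% against 2.06% for the P3 olfactory bulb, and in long genes 36.6% against 28.7% and 17.2% against 15.2%. In all, 494 of the 922 genes (53.6%, 50.3 to 56.8) held a region of some other list, against 30.1% of all protein-coding genes, and in long genes 84.6% against 75.8%.

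The 20 gene lists set beside the set hold 371 genes, and 41 of these held a region only in P3 cortex (11.1%, against 4.26% of all protein-coding genes). The lists are rich in long genes. Of their 87 genes of at least 200 kb, 31 held a region (35.6%, 25.6 to 46.6), against 23.0% of all genes of that length. Of their 284 shorter genes, 10 held one (3.52%, 1.70 to 6.38), against 3.37% of all shorter genes.

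**Figure D5:**
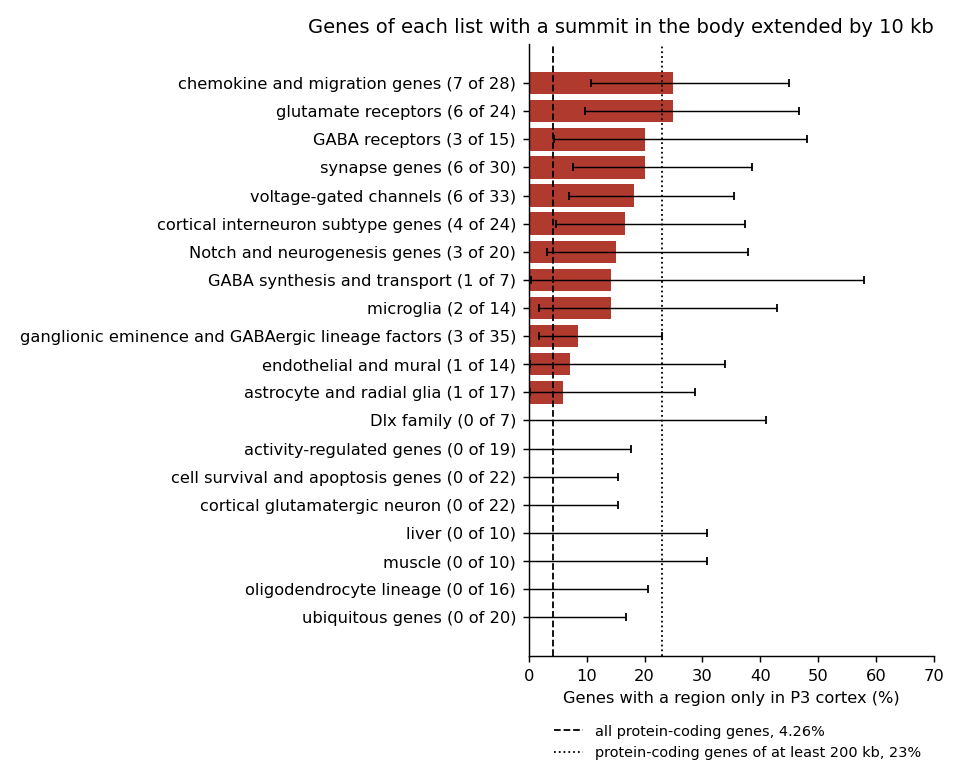
Share (%) of the genes of each list that held a region only in P3 cortex within the body extended by 10 kb, with counts beside the names and exact 95% intervals. Lines mark 4.26% for all protein-coding genes and 23.0% for genes of at least 200 kb, and the lists of receptors, channels, synapse and migration genes lie between 18.2% and 25%.

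The genes of GABAergic identity that held such a region were few in number, but their lists are short, and 4.26% of all protein-coding genes held one. Of the 7 Dlx genes, 0 did (exact interval up to 41.0%), against 5 with a shared P3 cortex region. The nearest region only in P3 cortex lay 772 kb from Dlx2, 785 kb from Dlx1, 485 kb from Dlx5 and 499 kb from Dlx6. P3 cortex regions in other lists lay within Dlx1 (fold enrichment 4.33) and at 5.14 kb from Dlx2 (6.68), 6.05 kb from Dlx5 (4.33) and 1.44 kb from Dlx6 (9.20). Cxcl14, a chemokine gene, held 0 regions of any list. Its nearest P3 cortex region was a shared one 305 kb away (24.9), and the nearest region only in P3 cortex was 717 kb away (3.82). Of 7 genes of GABA synthesis and transport, 1 held a region, the GABA transporter gene Slc6a11 (6.68, 5.22 kb outside the gene). Of 35 lineage factors of the ganglionic eminences, 3 did, among them Prox1 (5.59) and Npas3 (4.15). That share (8.57%, 1.80 to 23.1) has an interval that includes 4.26%. An E16 basal ganglia region was held by 33 of the 35, against 26.7% of all protein-coding genes.

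Among 24 cortical interneuron subtype genes, 4 held a region only in P3 cortex (16.7%, against 4.26% of all protein-coding genes). Of these, Reln, Adarb2 and Erbb4 are over 200 kb long, a length at which 23.0% of all genes held one. Reln, the secreted positioning signal reelin, had a fold enrichment of 7.94 at chr5:21928437-21929141, 142 kb from the nearest region of another list. Erbb4, the receptor through which interneurons respond to neuregulin, had its strongest region (9.15) at chr1:68534216-68534739, 132 kb from another list's. Adarb2, a marker gene of caudally derived interneurons, had 4.15. Cxcr4, the chemokine receptor of migrating interneurons, had 4.12, in a region 47 bp from an E16 basal ganglia region.

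Of 28 chemokine and migration genes, 7 held such a region (25%). On this list 13 genes are at least 200 kb long, as are all of the 7 but Cxcr4, and 23.0% of all genes of that length held a region. Besides Cxcr4 and Erbb4 these were Nrg1, which encodes the ligand neuregulin (2 regions, the stronger 8.12), the guidance receptor gene Robo2 (4.33), the repellent semaphorin gene Sema3a (3.47), the ephrin receptor gene Epha5 (2 regions, the stronger 4.69) and the cadherin gene Cdh8 (5.96). A ligand and its receptor, Nrg1 and Erbb4, held 2 and 3 regions, in gene bodies of 1084 and 1077 kb.

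Synaptic genes formed the next group. Of 30 synapse genes, 6 held a region (20%), against 4.26% of all protein-coding genes. Of the 30, 13 are at least 200 kb long, as are all of the 6 but Snap25. Among all genes of that length 23.0% held a region. They included Dlg2, the inhibitory scaffold gene Gphn (3.79), the vesicle calcium sensor gene Syt1 (4.47), the SNARE gene Snap25 (5.59) and the contactin gene Cntn4 (3.87). The Cntn4 region peaked 132 bp upstream of an annotated start of the gene and lay 1323 kb from any region of another list. Of these, Gphn and Cntn4 held 0 regions of the 4 other lists.

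Of 24 glutamate receptor genes, 6 held a region only in P3 cortex (25%). They included the metabotropic receptor genes Grm8 (5.41) and Grm3 (3.79), the NMDA receptor gene Grin2a (4.89), the AMPA receptor gene Gria3 (3.97) and the kainate receptor gene Grik2 (3.61). Of 15 GABA receptor genes, 3 did (20%), with 3.83 at Gabrb1, 3.71 at Gabbr2 and 3.19 at Gabrb2. Of 33 voltage-gated and related channel genes, 6 did (18.2%). Kcnh1 held 2, the stronger with 6.65, and the others were Kcnj6 (5.96), the calcium channel genes Cacna2d1 (5.05) and Cacna1c (3.603), Kcnq5 (4.69) and Kcnd2 (4.33). Kcnh1, Kcnj6, Gabrb1 and Gria3 held 0 regions of the 4 other lists. All these receptor and channel genes are over 200 kb long, where 23.0% of all genes held a region.

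Among 20 Notch and neurogenesis genes, 3 held a region (15%, 3.21 to 37.9, against 4.26% of all protein-coding genes). The fold enrichment was 4.51 near Notch2, 4.42 near Sox4 and 3.91 within Tcf4. The E16 cortex list held 89 regions in Tcf4, which is 345 kb long, and the P3 cortex list 3. None of the 22 cell survival, 22 cortical glutamatergic neuron, 19 activity-regulated, 16 oligodendrocyte lineage and 20 ubiquitous genes held a region only in P3 cortex, that is 0 in each list. The exact intervals of these lists reached 15.4% to 20.6% and so included the 4.26% of all protein-coding genes. Of the markers of other cell types, 1 of 17 astrocyte and radial glia genes held a region only in P3 cortex (Nfib, 4.68). So did 2 of 14 microglia genes (among them Ptprc, 3.65), 1 of 14 endothelial and mural genes (Cdh5, 3.53), 0 of 10 liver genes and 0 of 10 muscle genes. For glia and vessels the shares lay between 0% and 14.3%, with intervals that reached 20.6% or more and included the 4.26% of all genes.

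A small part of the set lay at genes of small RNAs, which are transcribed at high rates. Within 1 kb of a small nuclear, small nucleolar, transfer, ribosomal or Y RNA gene lay 14 of 1363 summits (1.03%, 0.563 to 1.72), against 40 of 753 shared P3 cortex regions (5.31%, 3.82 to 7.16). The share was 0.824% (0.504 to 1.27) for regions only in the E16 cortex and 0.331% (0.225 to 0.469) for regions only in the E16 basal ganglia. Their kinds differed. Transfer RNA genes accounted for 7 of the 14, against 1 of the 40, and small nuclear RNA genes for 5 of the 14, against 35 of the 40. The strongest was 50 bp from the arginine transfer RNA gene n-TRtcg2 on chromosome 13 (fold enrichment 6.84), and a second on that chromosome lay 58 bp from n-TAagc19 (3.799). Others peaked 73 bp from n-TVtac1 (4.54) and 570 bp from n-TEctc12, the last being the region of the Acp6 promoter (5.02). Summits fell within the annotated small nuclear RNA genes Gm23238 (5.41), Gm26244 (5.16) and Gm23143 (4.92) and within the Y RNA gene Rny1 (3.57). The Eif3c region lay 524 bp from the small nuclear RNA gene Gm25579, and one within the imprinted RNA gene Rian lay 267 bp from the small nucleolar RNA gene Gm24564 (5.05).

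Of microRNA genes, Mir34c contained the summit of the region chr9:51102809-51103313 (3.71), and Mir34b of the same cluster lay 482 bp away. Mir688 lay 602 bp from the summit at Atp5g2 (4.41), and Mir6340 lay 829 bp from a summit near Rab22a (6.50).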

How the data were processed

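Dlx2 ChIP-seq regions of 5 mouse brain libraries were analysed, 1 library per tissue and age. Trimmomatic, Bowtie2, SAMtools and MACS2 and the genome build mm10 are named per the submitters' processing notes. Their versions, the threshold and control used to call regions, and sequencing depth are not stated by those notes, the labels or the files. The authors deposited 1 list of regions per library in the narrowPeak layout. Its fold enrichment is the authors' ratio of summit signal to local background, and its significance values are the authors' −log10 of the p-value and q-value. The deposited score column was not used, and the summit column, of the unit other, is the authors' position in bp from a region's start. Such values are on the scale of 1 library and were compared only inside the P3 cortex list.

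Regions on chromosomes 1 to 19 and X were pooled and merged at an overlap of at least 1 bp with Python 3.11.15, pandas 2.3.3, numpy 2.4.6, scipy 1.17.1 and matplotlib 3.10.9, and the merging and counting steps were tested on simulated data. Genes and promoters came from RefSeq tables of GRCm38.p6, with 49550 genes on these chromosomes, 21627 of them protein-coding. The gene table gives neither strand nor exons, so place is given as gene boundary, gene body or outside. The promoter table has 32619 windows of 300 bases (250 before to 50 after a start) and supplied strand. In these, 13 motifs were searched on both strands, with windows of at least 15 CpG called CpG-rich. The plan to search motifs around summits was not carried out, since no genome was used, and promoter windows took its place.

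The regions, the 20 gene lists and the tests were chosen with earlier results of these data known. The genes named are those at the 25 strongest regions by −log10 q, at the 15 strongest within 1 kb of a protein-coding boundary, at the 5 widest, at the 5 nearest to and the 5 least overlapping another list, at 10 by small RNA genes, the 10 genes with most regions, up to 6 genes a list, and Cxcl14, Dlx1, Dlx2, Dlx5 and Dlx6. Some genes that this rule takes are not reported here. The microRNA genes and the genes of the printed or element-bearing promoters were chosen after their values were seen. Shares carry exact Clopper-Pearson 95% intervals. The alternatives tried changed the overlap rule, the lists used, the threshold on −log10 q, the gene set, distances and the choice of promoter windows.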

Additional observations from a re-analysis of the deposited data

Results flagged for a closer look

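The P3 cortex list also held 19 regions on the unplaced scaffold JH584304, which lies outside the chromosomes used above. They were drawn attention to because they are signal outside the main measurement. Their median fold enrichment was 1.39, below the 4.43 of the regions only in P3 cortex, and 0 of them were in the P3 cortex list alone. The E16 basal ganglia list held 31 regions on that scaffold and the other 3 lists 0.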

How the results depend on the processing

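The number of regions only in P3 cortex stayed within 1.5 times of 1363 under each alternative run. It was 1381 when a match needed an overlap of at least 50% of the shorter region, 1327 when edges up to 1 kb apart also matched, 1139 with a −log10 q of at least 5, and 1357 with a fold enrichment of at least 2, an alternative chosen after seeing the data. The shares by place moved by more than their counting error with 2 settings. Against protein-coding genes alone, 11.96% of summits lay at a boundary, 40.8% within and 47.2% outside genes, and with a boundary of 5 kb these were 31.1%, 37.5% and 31.4%. The share at small RNA genes was 0.293% for summits within such a gene and 1.98% within 5 kb. With a −log10 q of at least 5, the median fold enrichment was 4.84 for regions only in P3 cortex and 4.83 for shared ones, and the median widths were 404 and 429 bp. Among promoters with at least 15 CpG, an alternative chosen after seeing the data, GGGCGG was in 77.2% and TAATTA in 1.75%, while CCAAT stayed at 57.9%. Of the gene lists together, 38 genes held a region with an extension of 5 kb, 57 with 50 kb (where 8.85% of all protein-coding genes did) and 34 with a −log10 q of at least 5. Within single lists, 51 of the counts stayed within 1.5 times and 9 did not, where a count of 0 that stayed 0 is among the 51. Glutamate receptor genes with a region fell from 6 to 3 with a −log10 q of at least 5. Astrocyte and radial glia genes rose from 1 to 5 with an extension of 50 kb. At that extension, cell survival, ubiquitous and muscle genes each rose from 0 to 2, and cortical glutamatergic neuron genes from 0 to 1. The cause of these shifts was not tested, apart from distances that take in more or fewer genes by construction. No paired analysis was possible because each tissue and age has 1 library and no test was made. Read depth is unknown, so a place missing from a list may have been below that library's threshold.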

Other observations

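Regions with a fold enrichment under 2 that were only in P3 cortex numbered 6, and each lay outside protein-coding genes. By the nearest protein-coding gene they were at Asmt on chromosome X (1.87), Ajap1 (1.67), Vmn2r87 (1.59), Alkbh8 (1.49 and 1.24) and Gm45871 on chromosome 18 (1.35). The region 203 kb from Asmt had a −log10 q of 17.4 despite its low fold enrichment and was 649 bp wide.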
